A study of Homo sapiens with 46 samples.

Results

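Endoderm cells made in culture from H1, an established human pluripotent stem cell line, were separated into cytoplasm and nucleus, and RNA was counted in 3 libraries of each fraction. These 6 of the study's 46 libraries were taken by their labels, with the column code Nei read as nucleus. The transcripts of the endoderm table were summed per Ensembl gene, which gave 13644 genes, and 12681 of them passed the filter on low counts and were tested. The study as a whole covers cytoplasm, nucleus, nucleoplasm and chromatin from undifferentiated H1 cells (hPSC) and from ectoderm, endoderm and mesoderm made from them. For endoderm, H1 cells were grown in RPMI medium with low serum, non-essential amino acids, b-mercaptoethanol, WNT3A and 100 ng/ml activin A, and were collected after 5 days. The cytoplasm libraries hold what stayed in the liquid after a mild lysis with NP-40 detergent and a spin over sucrose, and the nucleus libraries hold part of the washed pellet. Nucleoplasm and chromatin were then split from that pellet with a stronger lysis, and the buffers of each step contained α-amanitin, an inhibitor of RNA polymerase II. The comparison groups from other cells were hPSC, kept in mTeSR1 on Matrigel, and mesoderm, grown with VEGF, BMP4 and bFGF after an initial period with activin A. The labels number the libraries as repeats without saying that they came from separate cultures, so p-values measure the spread between these samples, which may be technical.

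An mRNA made in the nucleus is spliced and exported, and is then translated either on free ribosomes in the cytosol or on ribosomes bound to the endoplasmic reticulum (ER). The ER is continuous with the outer membrane of the nucleus, and mRNAs for secreted and membrane proteins are brought to it by the signal recognition particle, which reads a hydrophobic stretch at or near the start of the new protein. Mitochondria carry their own genome and keep its transcripts inside. Transcripts with an unspliced intron are often held in the nucleus, as are some long noncoding RNAs.

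Total counts ran from 15955662 to 18360084 in the cytoplasm libraries and from 11933879 to 14952788 in the nucleus libraries. Mitochondrially encoded genes took 0.423% to 0.46% of the counts in cytoplasm, and 16.093%, 8.09% and 10.477% in nucleus libraries 1, 2 and 3. Nucleus library 1 stood apart from the other two: Pearson's r of log2 levels across genes was 0.95 and 0.959 with them and 0.982 between them. Levels below are CPM (counts scaled to library size, with TMM factors), and a log2 change is cytoplasm minus nucleus, with its standard error (SE) and an adjusted p from edgeR's quasi-likelihood test. Each value is a share of its own fraction: the RNA per cell in each fraction was not measured, and in bulk libraries fewer cells of a type and less RNA per cell cannot be told apart. Of the defining endoderm markers, SOX17 reached 79.8 ± 15.4 TPM (counts corrected for transcript length; SD, n = 3) in cytoplasm and GATA4 75.7 ± 12.2, while the pluripotency gene POU5F1 was still at 1660 ± 196. FOXA1, SOX2 and KLF4 were not analysed here.

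The fractions differed at most genes. At an adjusted p under 0.05, 8870 of 12681 genes were called (69.9%): 4359 were higher in cytoplasm (34.4%) and 4511 higher in nucleus (35.6%). The levels of the 3 cytoplasm libraries and the 3 nucleus libraries did not overlap in 8998 genes (71.0%). These shares are the background against which each gene family is read. They are relative to the scaling: on total counts alone the median log2 change moved from 0.01 to 0.73, and 71.9% of the calls were higher in cytoplasm against 49.1% with TMM. On the authors' TPM 62.9% were.

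Among genes with a symbol and a mean of at least 10 CPM, mitochondrially encoded RNAs gave 7 of the 10 largest falls in cytoplasm. MT-ND5 (ENSG00000198786, hg38 chrM:12337-14148), a subunit of respiratory complex I, stood at 49.6, 48.0 and 46.8 CPM in the cytoplasm libraries and at 11700, 4740 and 6430 in the nucleus libraries. The nucleus mean was 159-fold the cytoplasm mean, a log2 change of -7.31 (SE 0.34, adjusted p 3.79e-10), and nucleus library 1 was the highest. All 13 mitochondrial mRNAs fell, with log2 changes from -7.31 to -5.21 and a median of -6.09. Both mitochondrial rRNAs fell too, the large subunit RNA MT-RNR2 by 4.16 on the log2 scale (SE 0.24). The size depended on nucleus library 1 for MT-ATP6, an ATP synthase subunit (-6.87, and -5.84 without that library), and MT-ND2 (-6.09 and -5.38). MT-ATP8, at no more than 0.488 CPM in any cytoplasm library, went from -7.02 to -7.72 without cytoplasm library 3. MT-ND5 was at 7600 ± 416 CPM (SD, n = 3) in nucleoplasm and 937 ± 29.5 in chromatin.

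Nuclear-encoded parts of the mitochondrion leaned the other way. Of 77 mitochondrial ribosomal proteins tested, 54 were higher in cytoplasm and 1, MRPS25 (-0.47, named after its value was seen), was lower, with a list median of 0.73. Levels of MRPS25 overlapped between the fractions, and DESeq2 gave 59 higher and 0 lower. With libraries levelled for GC content, described below, the counts were 61 and 4. Of 80 nuclear-encoded respiratory chain subunits, 51 were higher and 7 lower (median 0.70). NDUFA5, of complex I, was at 37.2, 44.8 and 33.4 CPM in cytoplasm and 1.19, 3.67 and 5.75 in nucleus (log2 change 3.39, SE 0.38, adjusted p 1.43e-06). COX6A1, of complex IV, went against the list at -1.95 (SE 0.30). The import translocases TOMM and TIMM gave 14 higher and 2 lower of 24. The inner membrane carriers SLC25 leaned least, with 16 higher (40.0%) and 9 lower (22.5%) of 40 and a median of 0.21. Of all genes, 34.4% were higher and 35.6% lower.

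**Figure D1:**
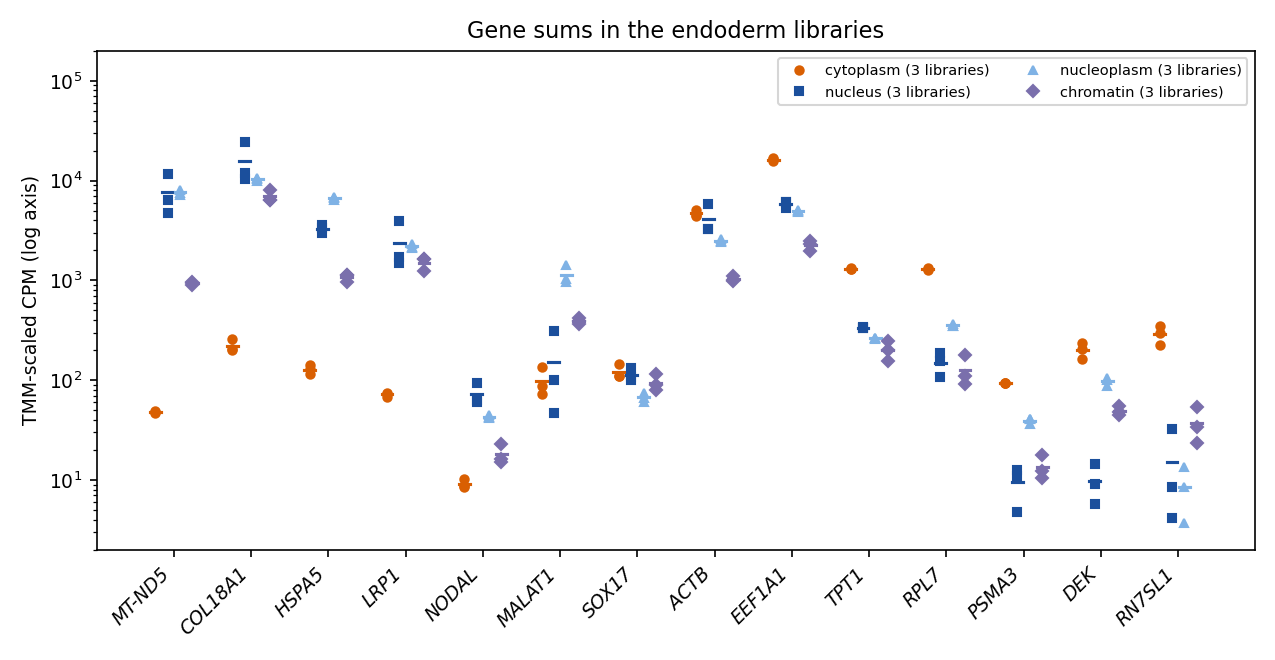
TMM-scaled CPM (log axis) of 14 genes in each endoderm library: circles are cytoplasm, squares nucleus, triangles nucleoplasm and diamonds chromatin, with a bar at each mean (3 libraries each). Genes run from MT-ND5, 159-fold higher in nucleus, to RN7SL1, 19.2-fold higher in cytoplasm, with MALAT1, SOX17 and ACTB between them, where the 2 fractions overlap or nearly meet.

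Genes for secreted and membrane proteins were the other large group that leaned to the nucleus libraries. All 52 collagens, laminins and matrix proteins tested were lower in cytoplasm, with a median of -4.26 and a range from -6.15 to -1.76, and none of their libraries overlapped between the fractions. COL18A1 (ENSG00000182871, hg38 chr21:45405137-45513720), a basement membrane collagen, stood at 258, 204 and 201 CPM in cytoplasm and at 24600, 10400 and 11900 in nucleus (log2 change -6.15, SE 0.35, adjusted p 1.85e-09). COL4A2, a chain of collagen IV, fell by 6.14 (SE 0.33), at 65.2 to 88.5 CPM in cytoplasm against 3500 to 7960 in nucleus. The perlecan core protein HSPG2 (-5.58) and von Willebrand factor VWF (-6.17) fell as well, and came to -4.86 and -5.41 without nucleus library 1. Of 72 integrins, cadherins and protocadherins, 64 were lower and 1 higher (median -3.23). The single riser, ITGB1BP1 (1.21), is not an adhesion receptor but a cytosolic protein that binds an integrin tail. The integrin subunit ITGA5 fell by 4.70 (SE 0.34), and by 4.09 without nucleus library 1.

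Receptors and transporters followed the matrix genes. Of 53 receptors for WNT, FGF, ephrin, Notch and TGF-beta signals, 46 were lower and 2 higher (median -2.42). The risers were the activin receptor ACVR2B (0.79) and the BMP receptor BMPR1A (0.53, named after its value was seen). With GC levelled ACVR2B was not called (adjusted p 0.0503), and the list gave 48 lower and 1 higher. The list also held other membrane receptors, among them LRP1, IGF2R and the plexin PLXNA3. LRP1, a large endocytic receptor, was at 68.5, 74.3 and 72.8 CPM in cytoplasm and at 3930, 1510 and 1700 in nucleus (log2 change -5.05, SE 0.34, adjusted p 6.67e-09). The nucleus libraries of LRP1 were thus far above the cytoplasm libraries, with nucleus library 1 the highest. Of 187 SLC transporters outside the SLC25 family, 143 were lower and 9 higher (median -1.33). Of 160 genes named TMEM for a membrane span, 92 were lower and 25 higher (median -0.80). Of 99 glycosyltransferases of the Golgi and ER, 74 were lower and 7 higher (median -1.50). The ion-pumping ATPases gave 28 lower and 12 higher of 48, and ATP6V1D, a soluble subunit of the vesicle proton pump, rose by 2.33 (SE 0.22). This list was drawn by symbol and also caught a divergent lncRNA, ATP6AP1-DT, and a readthrough gene, ATP6V1G2-DDX39B.

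The machinery of the ER itself divided by subunit. Of 32 genes for ER translocation and folding, 22 were lower in cytoplasm and 5 higher (median -1.85). The ER chaperone HSPA5 (ENSG00000044574, hg38 chr9:125234853-125241330) stood at 141, 128 and 114 CPM in cytoplasm and at 3620, 3330 and 2970 in nucleus (log2 change -4.69, SE 0.20, adjusted p 2.61e-10). The disulfide isomerase PDIA4 fell by 4.52 (SE 0.18). The 5 that rose were the small translocon subunits SEC61G (1.63) and SEC61B (1.22), the translocon partners SEC62 (1.35) and SEC63 (0.68), and the small oligosaccharyltransferase subunit OST4 (0.88), while the pore subunit SEC61A1 fell (-3.02). SEC63, SEC61B, OST4 and SEC61A1 were picked after their values were seen. With libraries levelled for GC content, described below, the list gave 25 lower and only 2 higher. SEC61G (0.34, adjusted p 0.356) and SEC62 (-0.31, 0.0569) were among those no longer called higher.

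Genes of cholesterol synthesis and uptake, many of them ER membrane enzymes, gave 13 lower and 3 higher of 23 (median -0.57, and 0.14 on total counts alone). IDI1, a soluble isomerase of the pathway, was at 77.9, 70.9 and 57.8 CPM in cytoplasm and 6.07, 23.0 and 18.9 in nucleus and rose by 2.09 (SE 0.31). The nuclear pore genes gave 11 higher (44.0%) and 8 lower (32.0%) of 25, beside 34.4% and 35.6% of all genes. Their median was 0.14, and -0.30 with GC levelled. The membrane-spanning pore protein NUP210 fell by 4.72 (SE 0.33) and the soluble NUP35 rose by 2.61 (SE 0.23).

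The predicted protein was used to look at this across all coding genes. A coding sequence of GENCODE release 29 was translated for 11269 of 11297 coding genes. It came from the GENCODE transcript of the gene with the most counts over the 6 libraries, which 9206 coding genes had. For the rest the longest coding sequence of the gene was taken. Each was searched for a stretch of 19 residues with a mean Kyte-Doolittle hydropathy of at least 1.6. Such a stretch is a usual sign of a signal peptide or membrane span. The 7516 genes without such a stretch had a median log2 change of 0.41, with 46.2% higher and 22.9% lower in cytoplasm. The 3070 genes with a stretch further in had a median of -0.77 (20.1% higher, 56.3% lower). The 683 genes whose stretch started within the first 20 residues had a median of -1.67 (8.2% higher, 73.5% lower). This order held in each of 4 equal groups by coding length: in the shortest group the medians were 0.81, -0.21 and -0.93, and in the longest -0.09, -1.12 and -3.14.

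Base composition moved with the fractions as well. Coding genes were put in 4 equal groups by transcript GC content. Those in the lowest group (31.8% to 43.2%) had a median log2 change of 1.40, and those in the highest (57.8% to 74.6%) of -0.86. The medians of the groups between them were 0.46 and -0.32. Within each GC group the order by hydrophobic stretch was kept: in the lowest the medians were 1.64, 0.63 and -0.21, and in the highest -0.51, -1.58 and -2.28.

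The difference by GC content was not equal between libraries. Levels were set against the median of each gene over all 12 endoderm libraries. The median log2 level of the lowest GC group less that of the highest was then 0.61, 0.68 and 0.21 in cytoplasm. In nucleus this difference was -2.43, -1.01 and -0.99. In nucleoplasm and chromatin, split from the same pellet, it was 0.53 to 0.73 and -0.10 to -0.02. The nucleus libraries were thus lower in AT-rich transcripts than both of their subfractions, and nucleus library 1 most of all. By contrast, genes without a hydrophobic stretch were above those with one by 0.72 to 0.77 in cytoplasm, and below them by 0.18 to 0.41 in nucleus and 0.27 to 0.29 in nucleoplasm. In chromatin they were above them by 0.04 to 0.10. Whether GC content differs through the cells, the extraction or the library preparation was not tested. A fit with library offsets that level GC content, chosen after seeing the data, gave GC group medians of 0.17 to 0.04 from lowest to highest and kept the hydropathy medians at 0.39, -0.67 and -1.43. It called 8611 genes, 6222 of them called in the same direction with TMM.

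**Figure D2:**
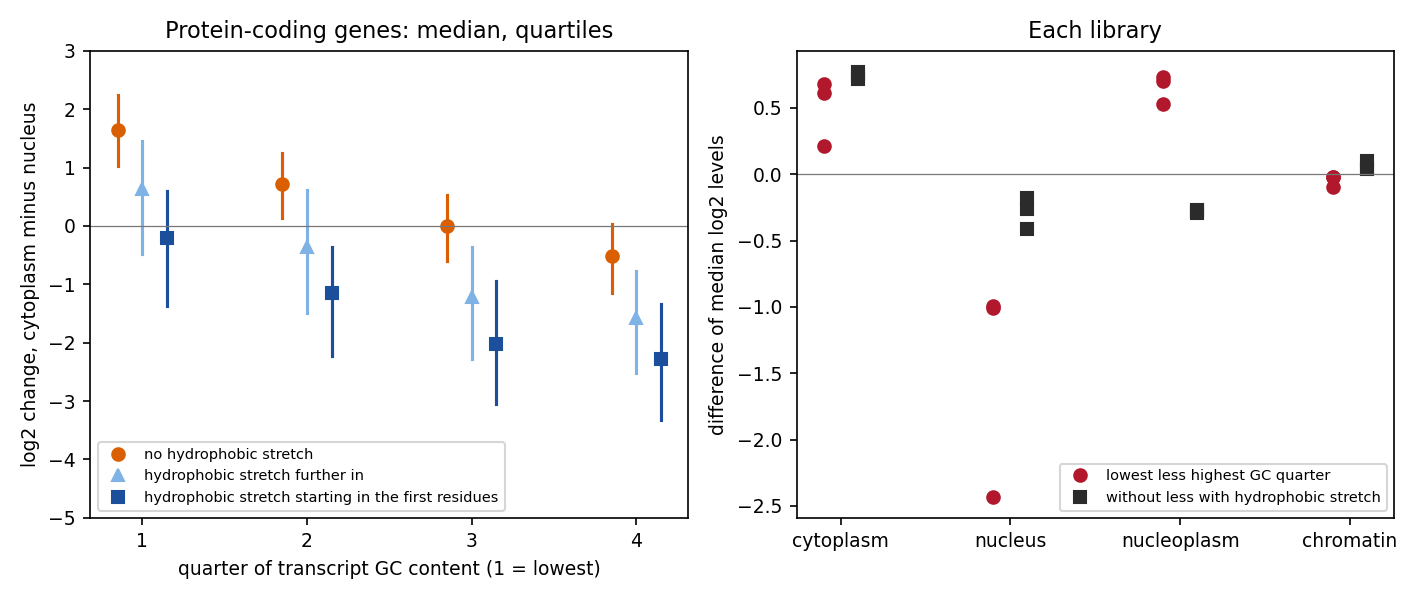
Left: median (point) and quartiles (bar) of the log2 change, cytoplasm minus nucleus, of coding genes by group of transcript GC content and by hydrophobic stretch; in each group the 3 classes keep their order. Right: per library, the median log2 level of the lowest GC group less the highest (circles) and of genes without less with a hydrophobic stretch (squares); the nucleus libraries alone lie at or below -0.99 for GC content.

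Several lists of cytosolic components leaned to cytoplasm, and 2 did not. Of 84 cytosolic ribosomal proteins, 79 were higher in cytoplasm and 0 lower (median 1.12, and 1.30 with GC levelled). At an unadjusted p under 0.05 the counts were 81 and 0, and DESeq2 gave 82 and 0. Among the 5 that were not called were RPL18 (0.41), RPS9 (0.47), RPL37A (0.52) and RPS21 (-0.18), named after their values were seen. RPL7 was at 1280, 1340 and 1310 CPM in cytoplasm and at 107, 188 and 156 in nucleus (log2 change 3.12, SE 0.25, adjusted p 4.18e-08). Its cytoplasm libraries lay within 60 CPM of each other and far above every nucleus library. RPS24 rose by 2.73 (SE 0.24), and RPLP0, of the ribosomal stalk, by 0.79 (SE 0.22, adjusted p 0.00544). Ribosomal protein pseudogenes share sequence with their parents, so the division of reads between them is uncertain.

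The translation factors gave 49 higher and 5 lower of 68 (median 0.80). EIF3E, a subunit of initiation factor eIF3, rose by 2.82 (SE 0.24), and the elongation factor EEF1A1 was at 15600, 16300 and 16900 CPM in cytoplasm and 6040, 6150 and 5310 in nucleus (log2 change 1.48, SE 0.18). Among those that fell were the scaffold EIF4G1 (-1.90, SE 0.21) and EIF2AK3 (-1.70, SE 0.16), a stress kinase that spans the ER membrane. Proteasome subunits gave 30 higher and 0 lower of 35 (median 0.98; 0 lower also at an unadjusted p and with DESeq2), and the CCT chaperonin, which folds actin and tubulin, 6 higher and 0 lower of 8 (median 0.85; again 0 lower in both). The proteasome core subunit PSMA3 was at 92.9, 93.2 and 94.1 CPM in cytoplasm and at 4.77, 12.6 and 11 in nucleus (log2 change 3.29, SE 0.28, adjusted p 6.82e-08). Ubiquitin-conjugating enzymes gave 23 higher and 2 lower of 31 (median 1.31, and 0.73 with GC levelled), with UBE2V2 at 3.53 (SE 0.25). The 2 lower were UBE2O (-1.16, SE 0.18) and UBE2CP5 (-3.58, SE 1.34), a pseudogene caught by its symbol. RAB GTPases, lipid-anchored switches of membrane traffic that are made in the cytosol, gave 25 higher and 8 lower of 46 (median 0.83), with RAB1A at 3.04 (SE 0.21). Heat shock and DNAJ genes gave 26 higher (44.1%) and 20 lower (33.9%) of 59. The cytosolic chaperone HSP90AA1 rose by 2.95 (SE 0.31). The deepest falls were HSPA5 and HSPG2, whose symbol places it in this list although it is a matrix protein.

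Some abundant cytosolic mRNAs did not pass the test. Glycolytic enzymes gave 4 higher and 3 lower of 17 (median 0.37), and actins and tubulins 1 higher and 2 lower of 17 (median 0.11). With GC levelled these became 13 and 1, and 12 and 0. Of 9 mRNAs taken as cytoplasmic controls, 6 rose and 0 fell, with the same counts at an unadjusted p under 0.05 and with DESeq2. TPT1 rose by 1.97 (SE 0.17) and GAPDH by 0.91 (SE 0.24). ACTB, beta-actin, stood at 4520, 4430 and 5100 CPM in cytoplasm and at 5820, 3260 and 3290 in nucleus (log2 change 0.18, SE 0.22, adjusted p 0.463). Its nucleus library 1 was above every cytoplasm library and the other nucleus libraries below them. ENO1 (0.02, SE 0.23) and TUBA1B (0.23, SE 0.22) were not called, and each of the 3 passed without nucleus library 1 (0.52 for ACTB, 0.41 for ENO1, 0.57 for TUBA1B). They also passed with GC levelled, at 0.71, 0.50 and 0.62.

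Among called genes with a symbol, a mean of at least 10 CPM and no overlap between the fractions, the 10 largest rises in cytoplasm were taken. They were 8 mRNAs of modest level and 2 copies of the RNA of the signal recognition particle. Outside these conditions log2 changes reached 9.57. DEK (ENSG00000124795, hg38 chr6:18223868-18264823), a chromatin-binding protein, stood at 206, 236 and 164 CPM in cytoplasm and at 5.75, 14.5 and 9.20 in nucleus (log2 change 4.36, SE 0.27, adjusted p 2.93e-09). Its level in nucleoplasm (97.2) and chromatin (49.5) was above all 3 nucleus libraries, although both were split from the nuclear pellet. The next were COPS2, of the COP9 signalosome (4.21), SCOC (4.12), SMIM15 (4.10), PDCD10 (4.09), the proteasome phosphatase UBLCP1 (3.91), the RAS-pathway scaffold SHOC2 (3.89) and the spliceosomal isomerase CWC27 (3.86). With GC levelled these 8 lay between 2.29 and 3.21, DEK highest. RN7SL1 and RN7SL2, copies of the RNA of the signal recognition particle, reached 4.26 (SE 0.60) and 3.97 (SE 0.60). RN7SL1 was at 353, 294 and 224 CPM in cytoplasm and at 4.12, 32.6 and 8.58 in nucleus, and both were larger without nucleus library 2 (5.51 and 5.08). The copies are nearly identical in sequence, so the division of reads between them is uncertain. RPPH1, the RNA of ribonuclease P, rose by 3.26 and was named after its value was seen.

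**Figure D3:**
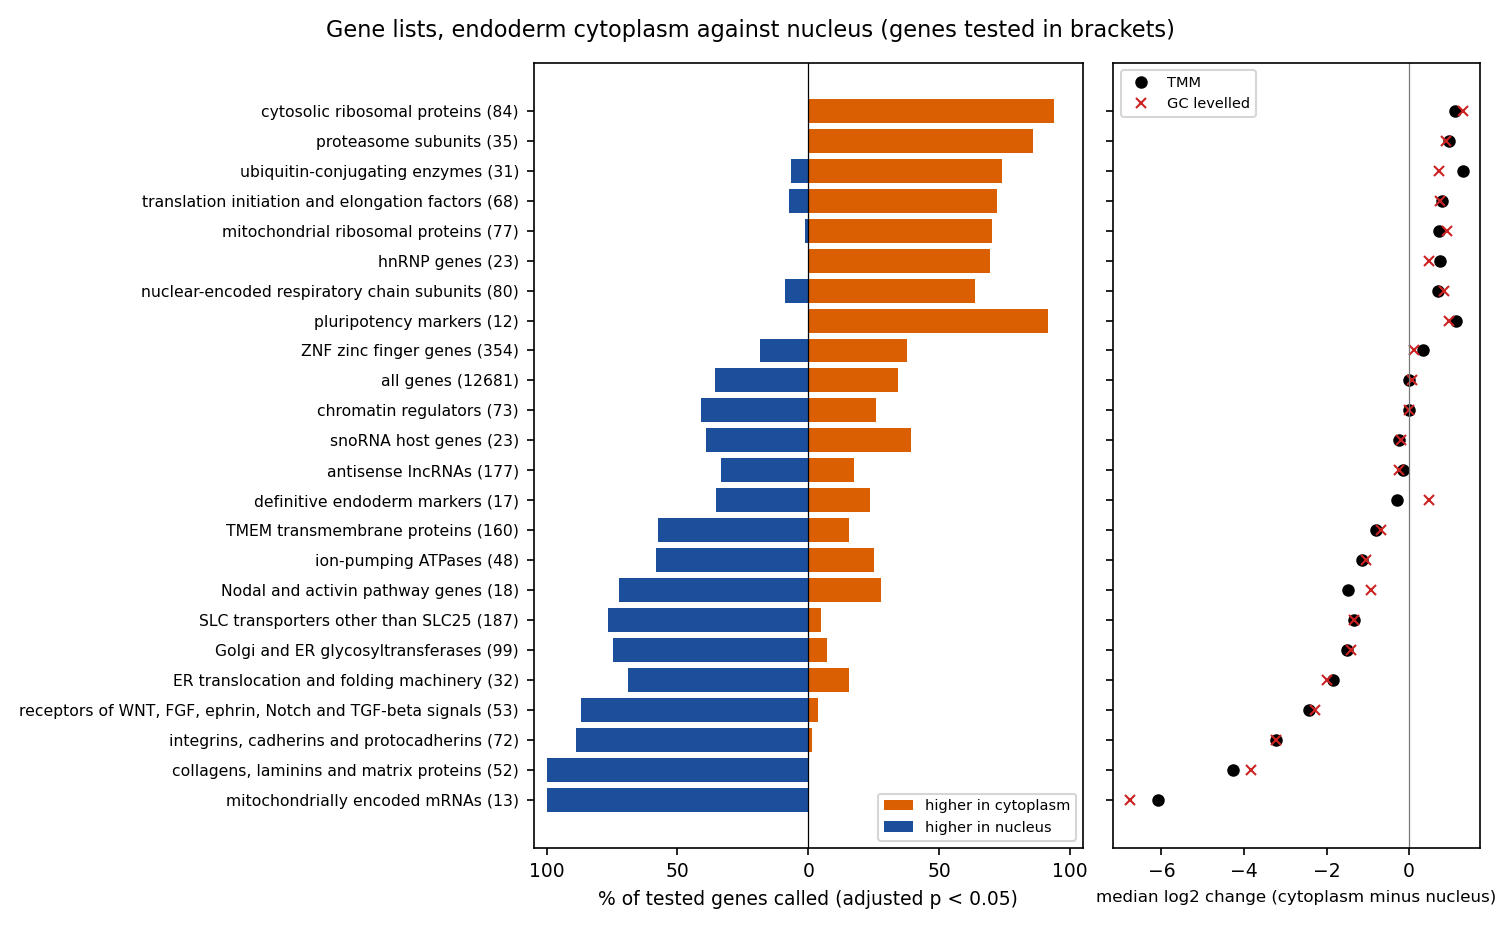
Left: share of the tested genes of each list called higher in cytoplasm (right of 0) or in nucleus (left of 0), in percent, with all 12681 genes for reference. Right: median log2 change of each list with TMM (circles) and with GC levelled (crosses); matrix genes and mitochondrial mRNAs are lowest, and of the lists drawn only the definitive endoderm markers change sign by more than 0.1.

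Lists of genes for nuclear proteins went different ways. Chromatin regulators gave 19 higher (26.0%) and 30 lower (41.1%) of 73 (median 0.00), with the remodeller CHD1 at 2.67 (SE 0.24) and the methyltransferase KMT2B at -2.26 (SE 0.18). ZNF zinc finger genes, mostly DNA-binding repressors, gave 134 higher and 65 lower of 354 (median 0.33). Histone genes gave 16 higher and 2 lower of 31 (median 1.13). The hnRNP genes gave 16 higher and 0 lower of 23 (median 0.76; 17 and 0 at an unadjusted p under 0.05 and with DESeq2, 12 and 2 with GC levelled), with HNRNPH2 at 2.37 (SE 0.23). SR splicing factors gave 8 higher and 2 lower of 12 (median 0.84), but 3 higher and 4 lower with GC levelled (median 0.01). SRSF3 was higher in cytoplasm by 1.53 (SE 0.13) with TMM and was at 0.03 (adjusted p 0.889) with GC levelled, whereas SRSF5 fell in both (-1.26 and -1.96). SRSF5 was not called on total counts alone (adjusted p 0.093), on TPM (0.593) or when only transcripts with an Ensembl ID were summed (0.985). SRSF5 was at 145, 155 and 144 CPM in cytoplasm and at 192, 481 and 392 in nucleus, and in chromatin its mean was 814. Of the CLK kinases, which phosphorylate SR proteins and are known for introns that hold their mRNAs in the nucleus, CLK2 (-1.32, SE 0.13) and CLK3 (-1.26, SE 0.15) fell and CLK1 did not pass (0.40, adjusted p 0.436). CLK2 was not called when only transcripts with an Ensembl ID were summed (adjusted p 0.0912).

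Noncoding RNAs were divided. Of 303 lincRNA genes tested, 14.9% were higher and 32.7% lower in cytoplasm (median -0.37), and of 287 antisense RNA genes 14.3% and 31.0% (median -0.24). The largest fall among antisense-named RNAs was LMNTD2-AS1, at 0.876, 1.00 and 1.07 CPM in cytoplasm and 33.8, 54.5 and 34.2 in nucleus (log2 change -5.37, SE 0.25, adjusted p 3.57e-10). The strand setting of the counts is not given in the sources used here, so reads of an antisense RNA and of the gene across from it cannot be told apart. LINC02593 fell by 3.8 (SE 0.15), and LINC01356 rose by 1.66 (SE 0.21). Of 37 miRNA precursor genes, 28 were lower and 2 higher (median -2.71). The snoRNA hosts gave 9 higher and 9 lower of 23 (39.1% each). SNHG1 fell by 1.66 (SE 0.21) and ZFAS1, whose spliced RNA is known to bind ribosomes, rose by 2.26 (SE 0.21).

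The RNAs taken as nuclear controls did not mark the nucleus fraction evenly. MALAT1 stood at 87.5, 134 and 72.6 CPM in cytoplasm and at 46.8, 309 and 99.9 in nucleus, so the fractions overlapped (log2 change -0.63, SE 0.46, adjusted p 0.229). It was at 1140 in nucleoplasm and 389 in chromatin, and it was called lower in cytoplasm with GC levelled (-1.68) and without nucleus library 1 (-1.06, adjusted p 0.00502). SNHG14, a host of imprinted snoRNAs, was higher in cytoplasm by 0.68 (SE 0.21, adjusted p 0.00824), but by 0.10 (0.553) with GC levelled, and its means in nucleoplasm (732) and chromatin (928) were above both. KCNQ1OT1 fell by 1.70 (adjusted p 0.00547), and by 1.12 (0.0592) without nucleus library 2, and it was not called on TPM (0.425) or on total counts alone (0.099). MEG3, at no more than 1.84 CPM in any of the 6 libraries, fell by 1.86 (0.0175) and lost the call without cytoplasm library 1 or 2 or nucleus library 2 or 3 (adjusted p 0.0625 to 0.107).

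In the Nodal and activin pathway, through which activin A drives endoderm, members were found on both sides. Of its 18 genes, 13 fell and 5 rose (median -1.48). The ligand NODAL was at 10.3, 8.72 and 8.43 CPM in cytoplasm and at 94.5, 60.2 and 63.2 in nucleus (log2 change -2.98, SE 0.21, adjusted p 1.08e-08). The ligand GDF3 fell by 3.74 (SE 0.36). The intracellular signal carriers SMAD2 and SMAD4 rose by 1.42 (SE 0.22) and 1.03 (SE 0.18), and neither was called with GC levelled (-0.19 and -0.07). Other risers were the receptor ACVR2B, already given, and the surface co-receptor TDGF1 (0.38), picked after its value was seen. With GC levelled the list gave 13 lower and 1 higher.

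Endoderm markers were found on both sides too, with a share of falls near that of all genes. Of 17 tested, 4 rose (23.5%), 6 fell (35.3%) and 7 did not pass, beside 34.4% and 35.6% of all genes. Their median was -0.30, and 0.48 with GC levelled. The chemokine receptor CXCR4 was at 3.63, 3.19 and 2.39 CPM in cytoplasm and 42.0, 24.8 and 30.8 in nucleus (log2 change -3.39, SE 0.22, adjusted p 6.33e-09). The receptor KIT fell by 3.14 (SE 0.18), the junction protein CLDN6 by 2.73 (SE 0.26), the adhesion protein EPCAM by 1.84 (SE 0.23), the ligand FGF17 by 1.77 (SE 0.24) and the secreted inhibitor CER1 by 1.05 (SE 0.22), the last not called on total counts alone (adjusted p 0.251). The 6 that fell encode secreted or membrane proteins. The transcription factors OTX2 (1.10), MIXL1 (1.10) and GATA6 (0.50) rose. SOX17, at 145, 111 and 110 CPM in cytoplasm and 132, 101 and 107 in nucleus, did not pass (0.11, SE 0.17, adjusted p 0.583), nor did GATA4 (-0.02), FOXA2 (-0.30), EOMES (0.31), HHEX (0.02), LHX1 (-0.33) and GSC (-0.35). Without cytoplasm library 1 GATA6 lost its call (adjusted p 0.096) and FOXA2 gained one (0.0281), and EOMES gained one without cytoplasm library 3 (0.0483). With GC levelled SOX17 (0.89), GATA4 (0.91), EOMES (0.72) and FOXA2 (0.48) were called higher in cytoplasm. Summed over the list, endoderm markers came to 834 to 1040 TPM in cytoplasm and 2510 to 3250 in nucleus. CLDN6 (means of 416 and 2110) and EPCAM (140 and 421) carried that difference: the other 15 markers summed to 319 to 420 TPM in cytoplasm and 325 to 375 in nucleus. Pluripotency markers, mostly nuclear and cytosolic proteins, gave 11 higher and 0 lower of 12 (median 1.15; the same counts at an unadjusted p and with DESeq2, 9 and 2 with GC levelled) and summed to 2760 to 3340 TPM in cytoplasm and 1110 to 1490 in nucleus. LIN28B, an RNA-binding protein of stem cells, rose by 3.24 (SE 0.28). Mesoderm markers gave 3 higher and 5 lower of 11, with the receptor KDR at -3.53 (SE 0.18), and of 3 neuroectoderm markers tested NES fell by 2.48 (SE 0.15). In cytoplasm the mesoderm markers summed to 216 to 299 TPM and the neuroectoderm markers to 182 to 200. The latter sum was mostly ZIC2 (mean 125) and NES (64.8), with PAX6 at 0.85. Of the symbols listed, 5 of 16 for mesoderm and 10 of 13 for neuroectoderm were not analysed here. The part of both lists in the results was not tested.

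Single transcripts were tested too. Of 26389 transcripts, 11122 were called (42.1%): 5087 were higher in cytoplasm (19.3%) and 6035 lower (22.9%). How the authors divided reads between isoforms of a gene adds an error that the test does not hold. Of 547 transcripts that GENCODE lists as retained intron, 325 were lower and 16 higher (median -2.21). Transcripts listed as protein coding had a median of 0.45 over 12772, and those listed for nonsense-mediated decay of 0.33. Among 10803 new isoforms, those the authors assembled for Ensembl genes without an Ensembl transcript ID, 812 were higher and 3043 lower.

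For 208 retained-intron transcripts the same gene had a coding transcript that splices the intron out, so each pair could be compared within the gene. The retained-intron transcript had the lower log2 change in 182 pairs and the higher in 26. The medians were -2.56 for the retained-intron transcripts and 0.29 for their partners, and the median difference was -2.60. These transcripts kept 257 introns in all, 252 of them inside the coding part, with a median length of 307 bases.

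The introns of 4 such pairs, chosen after their values were seen, are shown. They come from the deepest falls among called intron-keeping transcripts with a mean of at least 10 CPM and no overlap between the fractions. Each of these transcripts kept a single intron of at most 160 bases, inside the coding part. Genes on a single chromosome were passed over, and how else the 2 isoforms of a pair differ was not examined. The introns are printed from the GENCODE release 29 transcripts (hg38), 5′ to 3′ on the strand of the gene. With each go 12 bases of exon on each side, and capitals mark the first and last 2 bases of the intron, where splicing cuts.
TRABD (chr22:50197996-50198074, plus strand): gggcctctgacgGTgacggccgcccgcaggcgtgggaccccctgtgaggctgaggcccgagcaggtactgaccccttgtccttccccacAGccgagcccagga
FASTK (chr7:151077237-151077309, minus strand): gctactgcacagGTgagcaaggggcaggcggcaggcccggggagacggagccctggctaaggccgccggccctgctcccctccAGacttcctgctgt
DBN1 (chr5:177467628-177467742, minus strand): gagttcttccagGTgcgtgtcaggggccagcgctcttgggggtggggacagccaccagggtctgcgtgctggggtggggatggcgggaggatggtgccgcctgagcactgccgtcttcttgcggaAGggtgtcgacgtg
PLXNB2 (chr22:50278520-50278595, minus strand): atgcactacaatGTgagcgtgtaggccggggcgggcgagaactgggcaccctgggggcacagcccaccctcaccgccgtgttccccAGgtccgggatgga
Each is 73 to 115 bases long, 69.6% to 76.7% of it G or C, and each begins with GT and ends with AG.

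In TRABD, the transcript that keeps the printed 79 bases was at 0.687, 1.51 and 1.96 CPM in cytoplasm and at 29.6, 62.7 and 37.5 in nucleus (log2 change -4.96, SE 0.47, adjusted p 1.42e-05). Its spliced partner was at 43.1, 42.0 and 52.5 in cytoplasm and 66.3, 61.7 and 58.5 in nucleus and did not pass (-0.44, adjusted p 0.0965). In FASTK, a mitochondrial RNA-binding kinase homologue, the intron-keeping transcript fell by 3.99 (SE 0.32) and its partner did not pass (0.34, adjusted p 0.553). In DBN1, which encodes the actin-binding drebrin, both fell, the intron-keeping transcript by 3.68 (SE 0.53) and the spliced by 2.8 (SE 0.20). In PLXNB2, a membrane receptor for semaphorins, both fell, and the spliced transcript (-4.5, SE 0.60) by more than the intron-keeping (-3.27, SE 0.59).

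Isoform use within genes, the share of a gene's counts that each transcript takes, changed in 1285 of 5879 genes with 2 or more tested transcripts (21.9%, edgeR's test of differential splicing). Among 1199 of these with a mean of at least 10 CPM, the transcript gaining most in cytoplasm and that gaining most in nucleus did not overlap between the fractions in 1003. The implied length of both (from the ratio of counts to TPM) was known for 916, and the nucleus transcript was the longer in 749, or 81.8%. The same share was 54.0% in 3174 genes that were not called. Median lengths were 2220 bases for the cytoplasm transcripts and 3430 for the nucleus transcripts. The cytoplasm transcript was listed and the nucleus transcript new in 412 genes, and the reverse in 57. In 133 genes the cytoplasm transcript was listed as coding and the nucleus transcript as retained intron, and the reverse was seen in 1. The swing of a gene is the sum of the gains in share over its isoforms that gained in cytoplasm, which equals the sum of the losses over the rest. The median swing was 25.9 percentage points.

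The 8 genes with the largest swings ran from 77.9 to 67.6 points. In VWA5A (77.9) a listed coding transcript of 3750 bases held 44.0%, 49.9% and 37.0% of the gene in cytoplasm and 0%, 0.847% and 0% in nucleus, while another listed coding transcript, of 3580 bases, held 74.9%, 64.1% and 71.3% in nucleus. The gene sum of VWA5A changed by -0.48. In DENND1A, a regulator of RAB35, a new isoform of 6820 bases held 95.1%, 96.4% and 95.6% in nucleus against 16.8%, 26.4% and 14.2% in cytoplasm, where a listed transcript of 5550 bases held most of the rest. In LPIN3, a lipin phosphatase, a new isoform held 47.8%, 32.1% and 46.5% in nucleus and 0% in each cytoplasm library, and its nucleus level was at least 180-fold above the floor of 3 counts per library. In ULK3, a kinase, a transcript listed as retained intron held 40.1%, 47.1% and 51.9% in nucleus and 0%, 5.57% and 0% in cytoplasm. In ITGAE, an integrin subunit, a retained-intron transcript of 4260 bases held 84.0% ± 5.96 in nucleus (SD, n = 3) and a 430-base processed transcript 72.3% ± 4.61 in cytoplasm. CHKB and TOP3B also gave the longer isoform to the nucleus, with swings of 71.6 and 67.6 points, and TOP3B lost its call without cytoplasm library 3 (adjusted p 0.282) or nucleus library 3 (0.0968). In ZNF765, as in VWA5A, the cytoplasm isoform was the longer: its listed transcript of 4990 bases held 81.4% ± 2.65 in cytoplasm and a new one of 4250 bases 67.7% ± 2.74 in nucleus, with a gene sum at 0.01.

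By list, isoform use changed in 7 of 17 hnRNP genes, 3 of 7 SR genes, 2 of 2 CLK genes (CLK2 and CLK3) and 7 of 16 snoRNA hosts, beside 21.9% of all genes tested. The share was also above that in ubiquitin-conjugating enzymes (10 of 19) and below it in SLC transporters (9 of 88), ubiquitin-specific proteases (3 of 26) and CEP centrosomal proteins (1 of 15). In SRSF5 a new isoform of 2810 bases held 66.9%, 40.6% and 60.8% in nucleus and 0.287%, 12.2% and 10.6% in cytoplasm, where a listed coding transcript of 1390 bases held 53.9%, 46.6% and 53.5%. PNISR, a splicing-related protein, gave the nucleus a new isoform of 3760 bases at 71.3%, 65.8% and 63.5% and the cytoplasm a listed one of 1620 bases at 43.5%, 40.0% and 53.8%. Its gene sum did not pass (-0.28, adjusted p 0.445). PDCD5 swung by 62.6 points between a listed 314-base transcript in cytoplasm and a new 5520-base isoform in nucleus, with a gene sum at -0.18 (adjusted p 0.45). SRSF5, PNISR and PDCD5 were picked after their values were seen. Among single transcripts, a coding isoform of HNRNPH1 at 140, 152 and 166 CPM in cytoplasm was at 0 in each nucleus library. The falls with the largest fitted change were a new isoform of the kinase gene CDK10 (0 CPM in each cytoplasm library and 15.5, 40.5 and 43.8 in nucleus, at least 221-fold) and the retained-intron transcript of RAB24 (at least 189-fold). The rises after HNRNPH1 were isoforms of ARPP19, OSBPL9, SEPTIN7, ACADM and RPAP3. Each lay in a gene whose sum also rose, from 2.26 to 3.66, and the ARPP19 call was lost without cytoplasm library 1 or any 1 nucleus library (adjusted p 0.0619 to 0.0702).

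**Figure D4:**
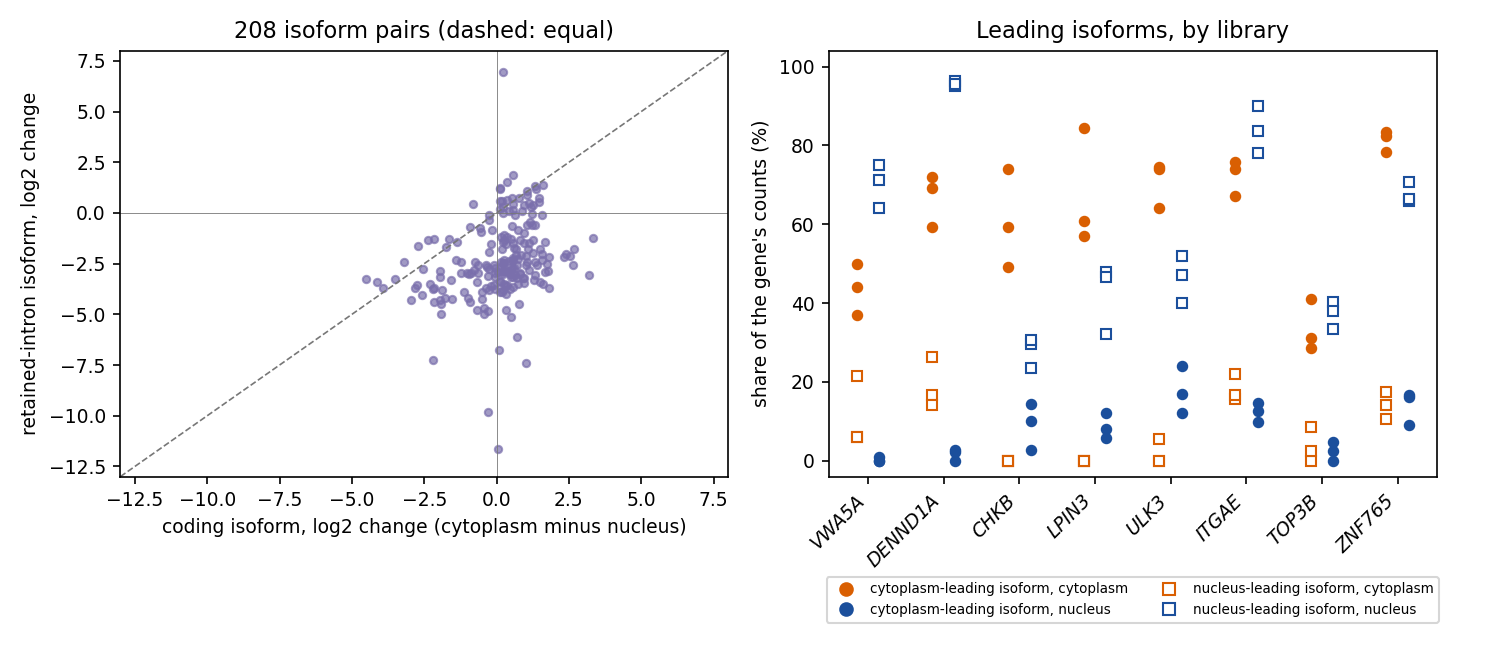
Left: log2 change of 208 retained-intron transcripts (vertical) against that of the coding partner that splices the intron (horizontal); 182 points lie below the dashed line of equality. Right: share of the gene's counts (%) held by the cytoplasm-leading (filled) and nucleus-leading (open) isoform of 8 genes in each cytoplasm (orange) and nucleus (blue) library.

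Over 2925 genes with new and listed transcripts, the mean share of counts on new isoforms was 14.3% to 15.9% in the cytoplasm libraries, 18.8% to 25.1% in nucleus and 27.3% to 29.9% in chromatin. It was higher in nucleus without overlap in 857 genes and higher in cytoplasm in 228.

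Whether these leanings were shared by other cells was asked with a test of the difference between differences, over 10681 genes found in all 4 cell types' tables. The assembly and, so far as the labels show, the preparation change together with the cell type, so cell and preparation cannot be told apart. Endoderm differed from hPSC at 4061 genes (38.0%) and from mesoderm at 5958 (55.8%). Mitochondrial mRNAs did not differ from hPSC in any of 13 (median log2 change -6.14 in endoderm and -5.59 in hPSC; 3 of 13 at an unadjusted p under 0.05 and 3 of 13 with DESeq2) and differed from mesoderm in 13 of 13, where the median was 2.76. MT-ND5 was at -7.37 (SE 0.34) in endoderm, -6.50 (SE 0.33) in hPSC and 0.11 (SE 0.26) in mesoderm, and without endoderm nucleus library 2 its difference from hPSC was called (adjusted p 0.0147). Cytosolic ribosomal proteins had medians of 1.05, 1.49 and 3.03 in the same order, and 5 of 84 differed from hPSC and 74 of 84 from mesoderm. The secretory lists lay low in all 3: the matrix genes at -4.43, -4.0 and -3.27, and ER machinery at -1.92, -1.94 and -1.29. COL18A1 fell further in endoderm (-6.20) than in hPSC (-4.30) and mesoderm (-3.87). Genes with a hydrophobic stretch in the first 20 residues had medians of -1.70, -1.66 and -1.09. The difference by GC content was larger in endoderm, with lowest-group medians of 1.33, 0.42 and 0.22 and highest-group medians of -0.87, -0.28 and -0.21. DEK, the largest rise in endoderm under the conditions given above, was at 4.27, 2.20 and 1.88. CLK3 was at -1.34, -0.17 and -0.22, and its differences from hPSC and mesoderm lost their calls with GC levelled.

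**Figure D5:**
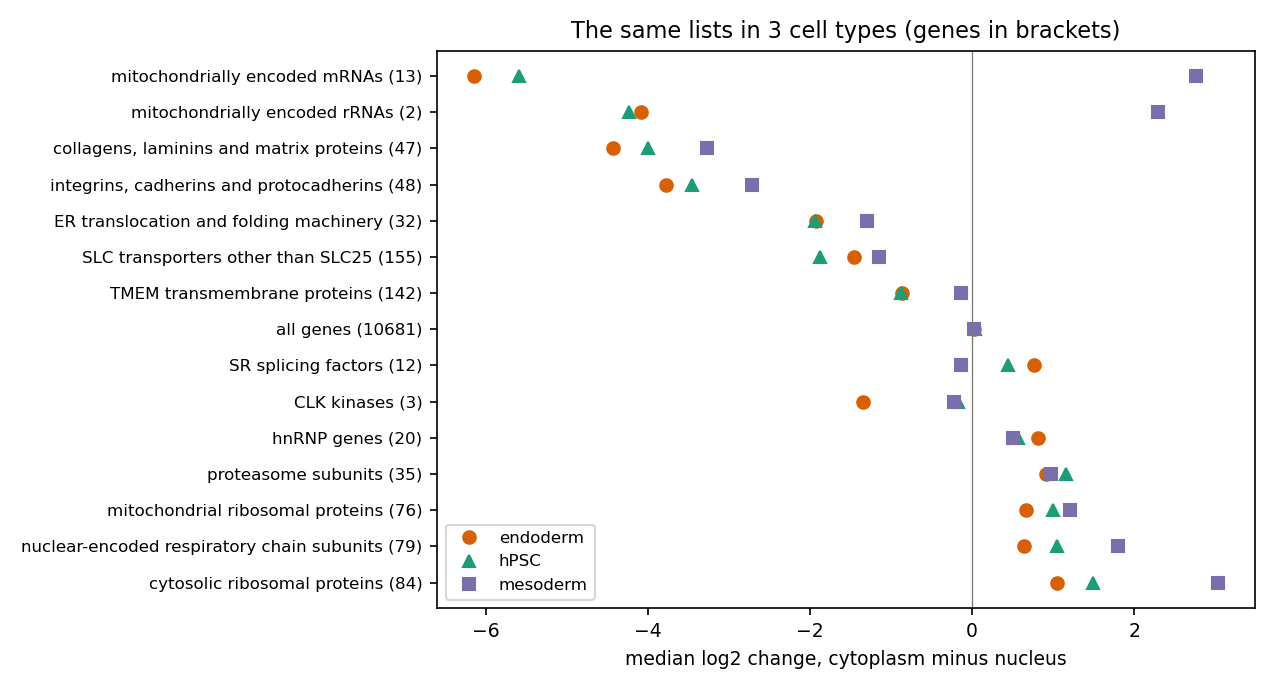
Median log2 change, cytoplasm minus nucleus, of the same gene lists in endoderm (circles), hPSC (triangles) and mesoderm (squares), with the number of genes found in all tables in brackets. Mitochondrially encoded RNAs are negative in endoderm and hPSC and positive in mesoderm (median mRNA 2.76), and matrix genes are negative in all 3.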

How the data were processed

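Libraries were made with an NEB Ultra RNA kit, per the labels' protocols, and the strand setting is not given in the sources used here. RSEM, STAR and the hg38 build are named by the submitters' processing notes. The deposited count values are whole numbers per assembled transcript and may be rounded estimates. The deposited TPM values were made by the authors for the same transcripts and correct for transcript length. Counts were summed per Ensembl gene; transcripts with no Ensembl gene held 0.338% to 5.981% of a library and were left out. Genes were kept by filterByExpr (minimum count 10), scaled by TMM and tested with edgeR 4.0.16 (R 4.3.3, quasi-likelihood, Benjamini-Hochberg) over the 12 endoderm libraries in 4 groups, which share 1 estimate of spread. Isoform use was tested with edgeR's diffSpliceDGE. Differences between cell types were fitted as an interaction over 24 libraries. Alternatives used DESeq2 1.42.0 and limma 3.58.1 on log2(TPM + 1), library scalings, filters and left-out libraries. The script was tested on simulated counts. In all, 76 columns of per-sample values that match no sample given here were not used.

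Named genes are the 10 largest rises and 10 largest falls, and up to 2 per list and direction, among called genes with a symbol, a mean of at least 10 CPM and fractions that do not overlap, plus every control RNA and endoderm marker tested. The 6 largest rises and falls of transcripts and 8 genes of isoform use follow the same conditions. Other genes named were chosen after their values were seen. The members and the 53 lists were chosen with earlier results of these data known. Some genes that this rule takes are not reported here.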

Additional observations from a re-analysis of the deposited data

Results flagged for a closer look

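These results were flagged because the cytoplasm-nucleus log2 change of the same gene differed between endoderm and other cells, by edgeR's test of the difference itself with Benjamini-Hochberg adjustment over 10681 genes. Cell type, assembly and preparation cannot be told apart in any of them. Against mesoderm, the change in endoderm was lower by -7.48 for MT-ND5 (SE 0.40, adjusted p 9.84e-12), -6.56 for the mitochondrial rRNA MT-RNR2 (SE 0.33), -2.37 for RPLP0 (SE 0.33) and -1.54 for TPT1 (SE 0.28). It was higher than in mesoderm by 2.43 for the proteasome subunit PSMA3 (SE 0.33, adjusted p 9.49e-06).

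COL18A1 differed by -1.91 from hPSC (SE 0.31, adjusted p 0.000155) and by -2.33 from mesoderm (SE 0.31). HSPA5 differed by -0.68 from hPSC (SE 0.20, adjusted p 0.012) and by -1.33 from mesoderm (SE 0.20). DEK differed by 2.07 from hPSC (SE 0.46, adjusted p 0.00164) and by 2.39 from mesoderm (SE 0.46). RPL7 differed by 0.77 from hPSC (SE 0.28, adjusted p 0.0359). CLK3 differed by -1.17 from hPSC (SE 0.22) and by -1.13 from mesoderm (SE 0.22). With GC levelled, chosen after seeing the data, the RPL7 and CLK3 differences were no longer called, and on total counts alone both HSPA5 differences and that of CLK3 from mesoderm were not. The RPL7 difference also lost its call without endoderm cytoplasm library 2 (adjusted p 0.0588) or nucleus library 1 (0.0886).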

How the results depend on the processing

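The number of genes called between endoderm cytoplasm and nucleus was 8870, and 8155 to 9307 when each library was left out (the highest without nucleus library 1). It was 9496 on total counts, 9059 with DESeq2, 8482 on TPM, 8611 with GC levelled and 6133 with a 2-fold minimum added. With the repeat number as a replicate block it was 8662, against 8870 without. Deviations of libraries with the same number were weakly or inversely correlated (-0.123, 0.173 and -0.378). With 3 libraries per fraction this cannot show whether the samples were paired. The block gave 10237 transcripts, 1110 genes of isoform use, 3716 differences from hPSC and 5733 from mesoderm. Differences from hPSC, 4061, fell to 1813 with GC levelled and 2003 with a 2-fold minimum, and those from mesoderm, 5958, to 3653 with the latter; on total counts the share higher in endoderm went from 51.8% to 90.0% and from 38.8% to 87.0%. The cause was not tested, beyond the fold minimum itself removing calls. Relative to the median of all genes, these values turned direction with GC levelled: SEC62 -0.37, GALNT1 -0.03, SRSF3 -0.03, SMAD2 -0.25, SMAD4 -0.14, FOXA2 0.42 and GATA4 0.85, and the medians of ubiquitin-specific proteases -0.05, SR splicing factors -0.05, DEAD and DEAH box helicases -0.02, nuclear pore genes -0.36 and mesoderm markers 0.07. SNHG14 came to -0.03 when only transcripts with an Ensembl ID were summed. Leaving out each library gave 9583 to 11316 transcripts, 1009 to 1418 genes of isoform use, 3029 to 4636 differences from hPSC and 5280 to 6205 from mesoderm. Over the named genes, 1788 values under an alternative kept direction and call, 28 lost the call, 27 gained it and 8 turned.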

Other observations

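A few abundant RNAs had an Ensembl gene ID but no symbol in the table, and were looked at after their values were seen. ENSG00000273739, typed as miscellaneous RNA, was at 12.1, 19.8 and 19 CPM in cytoplasm, 594, 6460 and 1960 in nucleus, a mean of 22.7 in nucleoplasm and 10100 in chromatin (log2 change -7.47, SE 0.74, adjusted p 4.08e-07, edgeR). Its nucleus libraries were far apart, with library 2 the highest and library 1 the lowest. ENSG00000281181 had the same order, at 50.4, 643 and 191 in nucleus and 1490 in chromatin (log2 change -6.52). ENSG00000281383 went the other way between these 2 fractions, at 492, 887 and 180 in cytoplasm and 26.2, 0 and 77.7 in nucleus (3.90, adjusted p 0.0205). Its mean in nucleoplasm, 1400, was above that in cytoplasm, 520, and its chromatin mean was 129. ENSG00000281383 and ENSG00000281181 both lie on chromosome 21, and whether reads were divided between like sequences was not tested. What these genes are was not tested.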
